A study of Mus musculus with 4 samples.

Results

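The miR-26 and miR-101 families were represented by 4 probes, mmu-miR-26a, mmu-miR-26b, mmu-miR-101a and mmu-miR-101b, among 566 probes for mouse miRNAs. The probes were found by name, as every row of the table whose ID is one of these miRNAs with or without an arm suffix or a star. Mature miRNAs were counted with the NanoString nCounter assay, in which a barcoded probe is read for each molecule, in total RNA of R1 mouse embryonic stem cells (ESCs). Wild-type R1 cells (WT) were compared with R1 cells in which Dnmt1, Dnmt3a and Dnmt3b, the genes of the DNA methyltransferases, were knocked out (TKO), with 2 biological replicates of each. Both genotypes were grown on gelatin in serum medium with leukemia inhibitory factor, and the labels state 4 days of differentiation before RNA was isolated for all 4 samples. The TKO cells are an established line whose making is not described in the labels beyond a citation, so any difference between the lines that is not due to the knockout cannot be told apart from genotype.

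A miRNA is cut from a hairpin precursor, first by Drosha in the nucleus and then by Dicer in the cytoplasm, and pairs with messenger RNAs mainly through its seed, bases 2 to 8. Both families are known for binding the messenger RNA of Ezh2, the catalytic subunit of Polycomb repressive complex 2, which methylates histone H3 at silenced genes. They are known for low levels in many tumors and for rising during the differentiation of several tissues. Ezh2 itself was not measured in these samples. The study asked whether DNA methylation beside the precursor affects the level of the mature miRNA.

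The mature sequences decide which messenger RNAs a family can reach and how alike its probes are, so they are shown first, from RefSeq on GRCm38.p6, with the seed in capitals. The probe names carry no arm and were read as the main strand, 5p for miR-26 and 3p for miR-101.
miR-26a: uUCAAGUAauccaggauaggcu
miR-26b: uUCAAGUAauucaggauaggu
miR-101a: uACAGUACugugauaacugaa
miR-101b: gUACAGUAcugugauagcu

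miR-26a and miR-26b have the same seed, and no other mature miRNA of the RefSeq table shares its bases 2 to 8. Counted from the 5′ end of miR-26a, they differ by C11U and C21U over the 21 bases compared, with 19 identical. In the RefSeq entries miR-101b begins 1 base before miR-101a, so its seed is shifted by 1 base. Aligned with that shift, the miR-101 members differ by A16G, counted from the 5′ end of miR-101a, and are identical at 17 of 18 bases. The 19 bases of miR-101c in RefSeq are all contained in the sequence of miR-101a, from its base 2. Its locus, chr9:3038680-3038698, is another than that of Mir101a, and none of the probes is named for miR-101c. How much of the signal of a probe came from a near-identical family member was not tested.

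The precursors show where each member comes from, with the mature miRNA in capitals.
Mir26a-1: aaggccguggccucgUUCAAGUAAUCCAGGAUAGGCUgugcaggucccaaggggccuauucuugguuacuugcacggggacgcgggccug
Mir26a-2: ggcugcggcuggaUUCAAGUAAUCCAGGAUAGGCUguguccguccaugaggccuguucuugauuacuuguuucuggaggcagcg
Mir26b: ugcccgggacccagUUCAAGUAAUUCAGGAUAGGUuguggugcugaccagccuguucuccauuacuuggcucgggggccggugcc
Mir101a: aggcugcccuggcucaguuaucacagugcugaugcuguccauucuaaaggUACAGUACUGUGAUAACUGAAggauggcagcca
Mir101b: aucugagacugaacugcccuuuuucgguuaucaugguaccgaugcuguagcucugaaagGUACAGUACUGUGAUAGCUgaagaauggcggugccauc

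The same mature miR-26a is cut from both Mir26a-1, at chr9:119031796-119031885 on the plus strand, and Mir26a-2, at chr10:126995530-126995613 on the plus strand. Its probe therefore reads both loci together. Mir26b lies at chr1:74394310-74394394 on the plus strand. All 3 miR-26 precursors lie within the spans of genes for small phosphatases of the RNA polymerase II tail, Ctdspl, Ctdsp2 and Ctdsp1 in that order. Mir101a, at chr4:101346945-101347027 on the minus strand, lies within the span of the long noncoding E130102H24Rik. Mir101b, at chr19:29135279-29135375 on the plus strand, lies within the span of Rcl1. Gene spans were used without strand or exons, so intron and exon are not told apart here. The Mir101a precursor holds no CpG, the dinucleotide that the DNMTs methylate, as do 33.5% of the 1005 mouse precursors of the RefSeq table. Mir26a-1 holds 5 CpG, and Mir26a-2, Mir26b and Mir101b hold 3 each, against a median of 1 over the 1005 precursors. In its lists of precursors by methylation of the borders, the study placed Mir101a in the bilateral group, Mir101b in the downstream group, Mir26a-2 in the upstream group and Mir26a-1 in the flat group. The study defined its methylated groups by the sequence flanking each precursor, whose CpG were not counted here. Mir26b is not named in those mouse lists. The miR-26a probe thus pools loci from different groups of the study, and it cannot show a difference between them.

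The recovered counts summed to between 511661 and 613666 per sample. Probes for 33 viral miRNAs, which serve here as an estimate of background, had a mean of 31.5 normalized counts and a mean plus 2 SD of 69.2, and 42.0% of the mouse probes had a mean above the latter. The miR-290 to miR-295 cluster, which defines mouse ESCs, was measured by 11 probes, of which 8 were above background. It made up 55.8% to 57.4% of the mouse signal in WT and 51.2% to 53.8% in TKO samples. The 17 probes for miRNAs of muscle, liver, blood, neural, smooth muscle and fibroblast cells made up 0.338% to 0.381% of the signal in WT and 0.379% to 0.402% in TKO samples. Of these 17 probes, 7 were above background and none of the muscle or liver probes was. Within this sum, the 5 blood probes stood at 0.152% to 0.164% in WT and 0.251% to 0.257% in TKO. The rise was mostly that of miR-142-3p, with means of 784 and 1219 normalized counts (miR-142-5p 71.2 and 86.1). The other blood probes were not above background, with means of 44.3 and 28.2 for miR-223, 16.8 and 15 for miR-144 and 20.3 and 22.5 for miR-451. The 2 neural probes stood at 0.0916% to 0.105% in WT and 0.0367% to 0.0443% in TKO. Their fall was mostly that of miR-124 (479 and 133), while miR-9 had means of 104 and 84.1.

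miR-101b was the highest member, followed by miR-26b, and both were above background in every sample. miR-101b reached 251 and 266 normalized counts in WT and 233 and 183 in TKO replicates 1 and 2. Both TKO samples were below both WT samples, and the WT mean was 259 ± 10.4 against 208 ± 35.3 in TKO (SD, n = 2 samples each). WT replicate 1 and TKO replicate 1 rested on recovered counts of 235 and 236, so their order came from the factor that scales each sample. The TKO samples lay farther apart than the WT samples, and the lower value was that of TKO replicate 2.

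miR-26b reached 181 and 164 normalized counts in WT and 134 and 132 in TKO. Its TKO samples were nearly equal and both were below the WT range, with means of 173 ± 11.8 in WT and 133 ± 1.80 in TKO (SD, n = 2 each). The log2 distance between replicates was 0.14 in WT and 0.028 in TKO. Its recovered count was 169 in each WT sample, with an exact Poisson 95% interval of 144.5 to 196.5 that covers counting error only, and 136 and 123 in the TKO samples.

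miR-26a reached 69.6 and 58.3 normalized counts in WT and 48.4 and 51.5 in TKO. It was lower in both TKO samples, with means of 63.9 ± 7.98 and 49.9 ± 2.14 (SD, n = 2 each), and stood between the mean and the upper limit of the viral probes in all samples but WT replicate 1, which lay just above this limit over all samples, though not above the 88.1 of its own viral probes. From 3 to 6 of the 33 viral probes were at or above it in each sample.

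miR-101a was the lowest member and the least reproducible. It reached 37.5 and 61.2 normalized counts in WT and 34.6 and 16.1 in TKO. The groups did not overlap, but WT replicate 1 and TKO replicate 1 rested on the same recovered count of 35, with an exact Poisson 95% interval of 24.4 to 48.7. The log2 distance between replicates was 0.71 in WT and 1.11 in TKO, against medians of 0.12 and 0.19 over the probes above background. miR-101a stayed below the 69.2 normalized counts of the viral mean plus 2 SD in every sample, and so was not above background in any. At or above it were 13 and 2 of the 33 viral probes in WT replicates 1 and 2, and 10 and 27 in TKO replicates 1 and 2. In TKO replicate 2 the probe rested on 15 counts and lay below the mean of the viral probes. The WT mean was 49.3 ± 16.8 and the TKO mean 25.3 ± 13.1 (SD, n = 2 each).

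**Figure D1:**
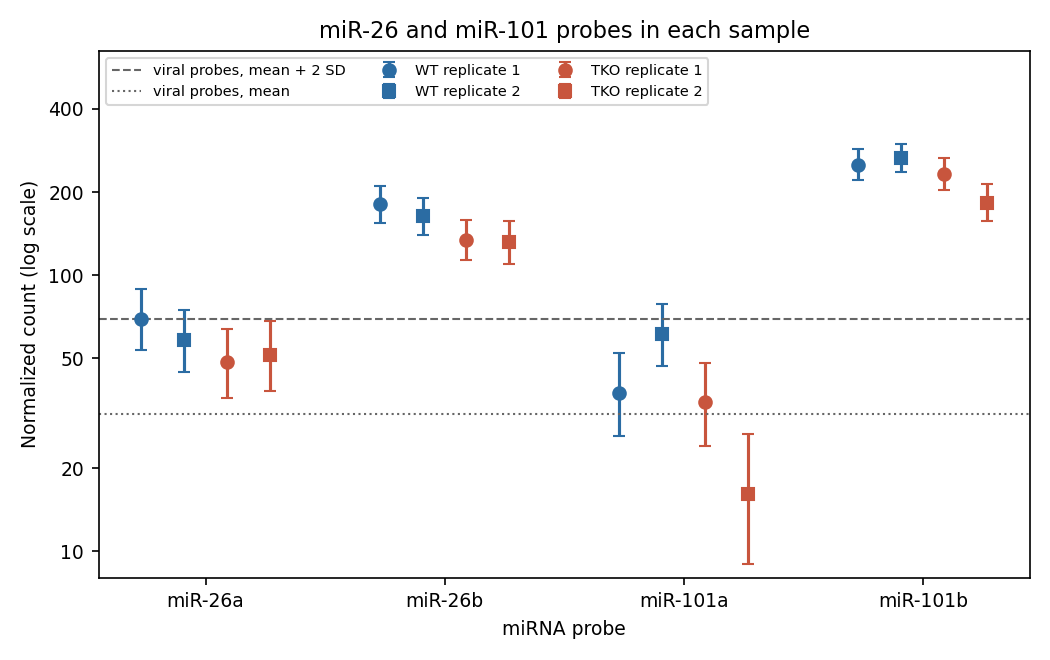
Normalized counts of the 4 probes on a log axis in each WT (blue) and TKO (red) sample, with circles for replicate 1, squares for replicate 2 and bars for the exact Poisson 95% interval of counting error. miR-101b and miR-26b sit above the dashed line at 69.2 (mean plus 2 SD of the viral probes) in every sample, and miR-101a falls to 16.1 in TKO replicate 2, below the dotted line at the viral mean of 31.5.

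In the order of levels, miR-101b and miR-26b kept the first 2 places in every sample, with no overlap between them in either genotype. miR-26a and miR-101a did not keep an order, since miR-101a was higher in WT replicate 2 (61.2 against 58.3) and lower in the other samples. Probes can bind with different efficiency, so these are levels of signal and not of molecules per cell. By mean WT level miR-101b ranked 111 and miR-26b 138 of the 566 mouse probes, and miR-26a 240 and miR-101a 284. Summed over its probes, the miR-26 family gave 0.0374% to 0.0425% of the mouse signal in WT and 0.0318% to 0.0362% in TKO samples. The miR-101 family gave 0.0491% to 0.0550% in WT and 0.0346% to 0.0531% in TKO samples, where TKO replicate 1 lay within the WT range. Most of the signal, with background included, came from the b member, between 71.9% and 73.8% in the miR-26 family and between 81.3% and 91.9% in the miR-101 family.

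None of the 4 miRNAs was called different between TKO and WT cells by limma with Benjamini-Hochberg adjustment over the 566 mouse probes, while 24 probes (4.24%) were called lower and 24 higher. This even split depended on the scaling, with 17 lower and 27 higher under sum scaling and 14 and 25 under scaling to the 100 highest probes, and on the model, with 55 and 30 under voom and 10 and 20 with the replicate block. Before adjustment, limma put none of the members under a threshold of 0.05, and 87 mouse probes with a lower and 46 with a higher level. All differences are TKO minus WT of log2(normalized count + 1), which understates the change of low probes. In bulk RNA, a lower level in every cell and fewer cells that hold the miRNA cannot be told apart.

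The difference was -0.37 for miR-26b (SE 0.15, 95% interval -0.77 to 0.031, adjusted p = 0.232 from limma), which corresponds to 77.4% of the WT level. It was -0.34 for miR-26a (SE 0.17, 95% interval -0.79 to 0.10, adjusted p = 0.304 from limma), and became -0.67 with the viral mean subtracted and -0.22 when WT replicate 1 was left out. For miR-101b it was -0.32 (SE 0.19, 95% interval -0.82 to 0.17, adjusted p = 0.369 from limma), or 80.0% of the WT level. miR-101a had the largest difference of the 4 and the widest interval, -0.99 (SE 0.45, 95% interval -2.18 to 0.21, adjusted p = 0.270 from limma), or 50.4% of WT with an interval from 22.0% to 115.5%. All 4 intervals include no change, and for the members above background they also include falls to 58.6% (miR-26b) and 56.7% (miR-101b) of the WT level. For miR-101a the difference was -1.52 when TKO replicate 1 was left out, -0.46 when TKO replicate 2 was and -0.64 when WT replicate 2 was, so its size rests on single samples. For miR-101b it became -0.49 when TKO replicate 1 was left out and -0.15 when TKO replicate 2 was. The study named miR-101a as a representative of the bilateral group, so its direction here is not independent evidence.

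All 4 members had a lower mean in TKO cells, as did 61.7% of the mouse probes. Both TKO samples were below both WT samples for all 4 members and for 36.0% of the mouse probes. Among mouse probes above background, as 2 of the members are, the share was 52.1%. The median difference of the members was -0.36, against -0.12 over all mouse probes and -0.20 over those above background. Of the mouse probes, 26.3% had a more negative difference than miR-26b, 28.1% than miR-26a, 29.0% than miR-101b and 3.9% than miR-101a. A shift of this size and direction was therefore common in the table for 3 of the members.

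**Figure D2:**
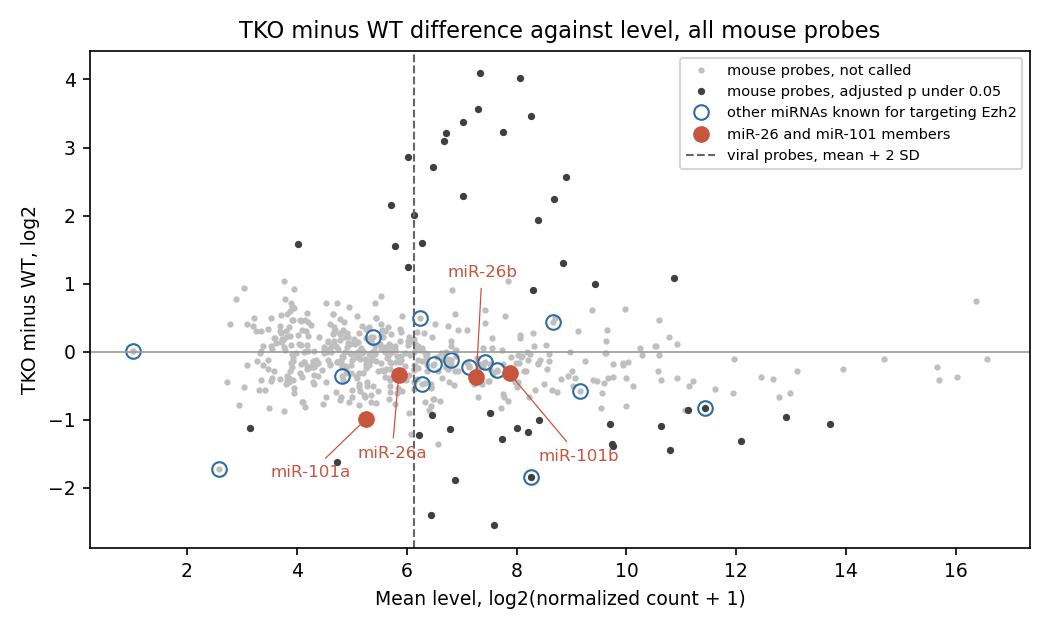
TKO minus WT difference (log2) of each mouse probe against its mean level (log2 of the normalized count plus 1), with the 4 members in red, 15 other miRNAs known for targeting Ezh2 circled in blue, probes called by limma in black and the viral limit as a dashed line. miR-26a, miR-26b and miR-101b lie at -0.34, -0.37 and -0.32 within the band of uncalled probes, and miR-101a lies lower, at -0.99, left of the dashed line.

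The zero point of these differences depends on how the samples are scaled, since the totals of the samples were not equal. With each sample divided by its sum over the mouse probes, the median of all mouse probes moved from -0.12 to 0.0089 and the differences were -0.21 for miR-26a, -0.24 for miR-26b, -0.86 for miR-101a and -0.19 for miR-101b. With the 100 highest probes as the reference the median was 0.042 and the differences -0.18, -0.20, -0.83 and -0.15 in the same order. With the viral probes as the reference they were -0.31, -0.34, -0.96 and -0.29. Each member kept a negative difference. Scaling moves all probes together, so the distance from the median of all probes is nearly fixed by construction, at -0.22 for miR-26a, -0.25 for miR-26b, -0.87 for miR-101a and -0.20 for miR-101b under the deposited scaling. The miR-26 members kept both TKO samples below both WT samples under each scaling. The miR-101 members did not, as their groups overlapped under all 3 scalings other than the deposited one. The share of mouse probes with both TKO samples below both WT samples fell from 36.0% to between 23.1% and 28.8%.

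**Figure D3:**
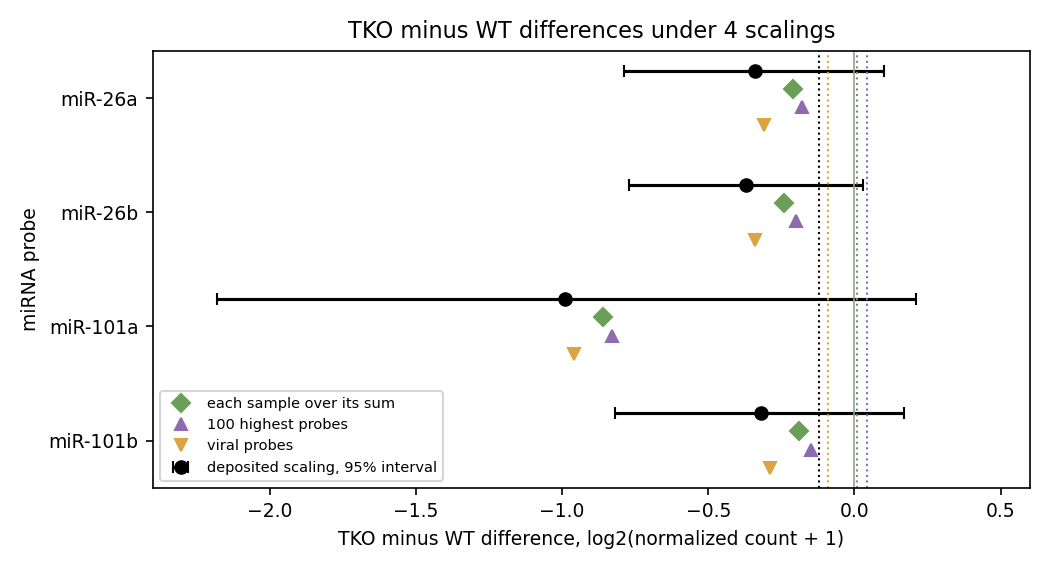
TKO minus WT difference (log2 of the normalized count plus 1) of the 4 probes under the deposited scaling (black, with the 95% interval from limma) and 3 others, with a dotted line in the same colour at the median of all mouse probes for each scaling. All points lie left of 0 and of the median of their own scaling, and all 4 black intervals cross 0.

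The ratio of the members of a family within a sample does not depend on the scaling, but it does depend on the background, since the a member of each family was not above it. The log2 ratio of the miR-26a to the miR-26b signal was -1.44 ± 0.082 in WT and -1.42 ± 0.081 in TKO (SD, n = 2 each; exact permutation test over samples, two-sided, p = 0.667). As signals with background included, miR-26b was 2.60 and 2.82 times miR-26a in WT and 2.78 and 2.56 times in TKO, with overlapping genotypes. With the viral mean of each sample subtracted, the same folds were 4.39 and 4.58 in WT and 5.24 and 5.23 in TKO, without overlap, and the TKO minus WT difference of the log2 ratio turned from 0.021 to -0.22. The ratio therefore does not show whether the miR-26 members changed alike.

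The log2 ratio of the miR-101a to the miR-101b signal was -2.43 ± 0.44 in WT and -3.13 ± 0.54 in TKO (SD, n = 2 each; exact permutation test, two-sided, p = 0.333). With 2 against 2 samples this test cannot give a p below 0.333, and over both ratios each adjusted p was 0.667. After subtraction of the viral mean miR-101a was at the floor of 1 normalized count in 2 of the 4 samples, so no fold between the miR-101 members is given.

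Some miRNAs share part of the seed with miR-101. miR-144, a miRNA of red blood cell development, shares bases 2 to 7 with miR-101a, and its sequence is printed to show the difference at base 8.
miR-144-3p: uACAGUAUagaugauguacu
miR-582-5p: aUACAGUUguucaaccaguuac

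The miR-144 probe read 17.1 and 16.5 normalized counts in WT and 11.9 and 18.2 in TKO, below the mean of the viral probes, and TKO minus WT came to -0.18 (adjusted p = 0.708 from limma), which did not pass the threshold. miR-582-5p shares bases 2 to 7 with the shifted seed of miR-101b. It read 36.4 and 41.8 normalized counts in WT and 14.8 and 9.65 in TKO and was called lower (-1.62, SE 0.25, adjusted p = 0.0285 from limma), though it was not above background. The call was lost with any 1 sample left out, at adjusted p values from 0.115 to 0.181 from limma and differences from -1.91 to -1.34, and with the viral mean subtracted (-1.85, adjusted p = 0.767 from limma). The study named miR-582 as a representative of its upstream group in the same way, so this call is not independent evidence either. Among mature miRNAs of RefSeq, miR-6371 shares bases 2 to 7 with the miR-26 family, and no probe was named for it.

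Of 15 other miRNAs known for targeting Ezh2, each with a probe and 11 above background, 2 (13.3%) were called lower in TKO cells and none higher, against 4.24% of all mouse probes called lower. Probes above background made up a larger share of this list than of all mouse probes. When only such probes were tested, limma called 3 of the 11 lower (miR-124, miR-25 and let-7g), against 48 of all 238 mouse probes above background. Most of the list was of the let-7 family. The median difference of the 15 was -0.22, against -0.20 over the mouse probes above background. The mean was lower in TKO for 11 (73.3%, against 61.7% of all mouse probes) and higher for 4, of which let-7a read 1 recovered count in each of the 4 samples and so differed by the factors of the samples alone. Both TKO samples were below both WT samples for 8 (53.3%, against 36.0% of all mouse probes), and for 6 of the 11 above background (against 52.1% of all mouse probes above background). miR-124, the main miRNA of neurons, reached 499.8 and 457 normalized counts in WT and 132 and 134 in TKO, with no overlap and a difference of -1.84 (SE 0.15, adjusted p = 0.0062 from limma). miR-25, cut from an intron of Mcm7 with miR-106b and miR-93, reached 3512 and 3533 in WT and 1908 and 2059 in TKO, a difference of -0.83 (SE 0.15, adjusted p = 0.0454 from limma). miR-124 is also 1 of the 2 neural markers checked and gave most of their summed level. This sum was 545 to 621 normalized counts in WT and 211 to 223 in TKO samples. The other neural marker, miR-9, had means of 104 in WT and 84.1 in TKO (-0.29, adjusted p = 0.504 from limma). The part of neural cells in the result was not tested. The call of miR-25 was lost under the deposited log2 values, under all 3 other scalings (adjusted p from 0.0601 to 0.0929 from limma) and with the replicate block (adjusted p = 0.13 from limma), and both calls were lost with any 1 sample left out, at adjusted p values up to 0.198 for miR-25 and 0.115 for miR-124. The differences stayed between -0.88 and -0.66 for miR-25 and between -2.11 and -1.67 for miR-124 over all alternatives.

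let-7g, of the let-7 family that accumulates as stem cells differentiate, had the highest level of the list after miR-25, with 645 and 720 normalized counts in WT and 464 and 447 in TKO. Its groups did not overlap, and TKO minus WT was -0.58 (SE 0.15, adjusted p = 0.115 from limma), short of the threshold. It passed when only probes above background were tested, with an intensity trend and with voom. let-7c, next in level, read 306 and 371 in WT and 598 and 343 in TKO, with overlapping groups and a difference of 0.43 (SE 0.32, adjusted p = 0.497 from limma). The other 11 miRNAs of the list had differences between -1.72 (miR-217, under 13 normalized counts in each sample) and 0.50 (let-7b). miR-217 was not above background, and limma called it only with the viral probes as the reference for scaling.

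For the higher member of each family, the probes above background with the most similar profile over the 4 samples were found by the Euclidean distance of the mean-centred log2 values. For miR-26b they were miR-103 (distance 0.027), miR-291a-5p (0.034) and miR-342-3p (0.039), out of 237 probes with a median distance of 0.422. miR-103 went from 957 and 872 normalized counts in WT to 699.7 and 703 in TKO, a difference of -0.38 that was not called (adjusted p = 0.224 from limma). For miR-101b they were miR-410 (0.090), miR-99b (0.112) and miR-2134 (0.133), with a median distance of 0.473. miR-410, of the imprinted Dlk1-Dio3 region, read 533 and 583 in WT and 537 and 393 in TKO, so that its groups overlapped. Such likeness over 4 samples was not rare, since 30 of the 237 probes lay within 0.2 of miR-26b and 17 within 0.2 of miR-101b.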

How the data were processed

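Mature miRNAs of 2 WT and 2 TKO samples were counted with the nCounter miRNA assay. The authors normalized the counts with nSolver (version, normalizing probes and background handling are not given in the sources used here) and deposited log2 values, 1 column per sample. These were turned back to normalized counts, which are whole counts times 1 factor per sample (100% of values within 0.05 of a whole number). With 599 probes in the table, 566 name mouse and 33 viral miRNAs. TKO and WT were compared with limma (lmFit and eBayes) on log2(value + 1) over the 566 probes, with Benjamini-Hochberg adjustment at 0.05 and no covariates. A probe was above background when its mean passed the viral mean plus 2 SD. The fit was checked on simulated data.

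The member probes were found by name alone, but the families, lists and rule for named miRNAs (members, seed sharers, the 3 highest and any called of the Ezh2 list, the 3 nearest profiles) were chosen with earlier results of these data known. miR-217 and let-7b (the ends of a range), let-7a and the single blood and neural marker probes were named after their values were seen. Sequences came from RefSeq GRCm38.p6, in which the 4 members matched by name. Alternatives covered pseudocount, scaling, background, filter, voom, left-out replicates and a replicate block. Fits ran in limma 3.58.1 under R 4.3.3, and tables and exact tests in scipy 1.17.1 and pandas 2.3.3 under Python 3.11.15. Plots used matplotlib 3.10.9.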

Additional observations from a re-analysis of the deposited data

How the results depend on the processing

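Over 54 alternative values of the members' differences, every one stayed negative and none passed the threshold, with adjusted p values from limma between 0.0643 and 1. The differences ran from -0.44 to -0.20 for miR-26b, -0.67 to -0.18 for miR-26a, -0.49 to -0.15 for miR-101b and -1.52 to -0.46 for miR-101a. With the viral mean subtracted miR-26a moved to -0.67. The miR-26a and miR-101a probes could not be fitted among probes above background only, which they are not. The TKO minus WT difference of the log2 ratio of miR-26a to miR-26b, 0.021, turned to -0.22 after background subtraction and lay between -0.037 and 0.079 with 1 sample left out.

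The number of mouse probes called was 48. It was 74 among probes above background only (of 238), 84 with an intensity trend and 85 with voom on the recovered counts, 30 with the replicate block, and between 0 and 14 with 1 sample left out, where the lone sample is assumed to vary like the others. Without TKO replicate 1 limma called 0, with 75 mouse probes lower and 39 probes higher before adjustment (p under 0.05), and without TKO replicate 2 it called 0, with 64 and 37. With a WT sample left out it called 14 (replicate 1) and 9 (replicate 2). The replicate block changed no call of a member. Deviations of same-numbered samples correlated at -0.094 over all mouse probes and -0.243 over those above background. This gave no sign of pairing, but 2 samples per group cannot settle whether same-numbered samples belong together. A crossed block, chosen after seeing the data, called 64. The cause of these changes was not tested. Calls on the Ezh2 list, recounted after seeing the data, ran from 0 to 3. Of 48 alternative levels of the members, 34 stayed within 1 SD. Of the other 14, 7 came from other scalings and 7 from subtracting the viral mean, which took miR-26a from 63.9 to 31.2 normalized counts in WT and from 49.9 to 19.6 in TKO, and miR-101a from 49.3 to 16.7 and from 25.3 to 3.72. Of the members, miR-101a and miR-26a had the largest counting error, and neither was above background. For miR-101a the log2 distances between replicates were 0.71 in WT and 1.11 in TKO. Its counting SD was 0.18 to 0.37 for a single sample, and a distance between 2 samples carries the counting error of both.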
